A study of Mus musculus with 50 samples.

Results

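The comparison described here set lymph nodes that drain the intestine against a node that drains skin, in mice raised without vitamin A. Its members were the 25 libraries of the deficient diet among the 50 libraries of the study. They comprised 20 gut-draining libraries, 5 each from duodenal, jejunal, ileal and colonic nodes, and 5 libraries from inguinal nodes. The mice had the C57B6 genotype, were all labelled female and were taken at postnatal day 56, from later litters of dams fed a diet lacking vitamin A from 3 weeks before mating. The other 25 libraries came from offspring, of both sexes, of dams given the matched diet with vitamin A at 20 IU/g. Each value is bulk poly(A) RNA of a dissected node. Nodes are not tied to individual mice in the labels, and p-values therefore describe the spread between libraries, which may be technical in part.

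A lymph node filters the lymph of the tissue it drains, and its stroma, vessels and resident macrophages differ with that tissue. Vitamin A reaches the body through the intestine, and retinoic acid made from it in gut-draining nodes is known for imprinting gut homing on lymphocytes and for switching B cells to IgA. The inguinal node receives lymph from skin and lies in the subcutaneous fat pad. The comparison therefore shows which regional differences are present when dietary retinoid is missing.

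Estimated counts summed to between 6127667 and 8896556 per library. In 10 of the 25 libraries a single transcript, Gm19220, took 1.03 to 1.70% of counts, and in the other 15 it took 6.01 to 9.83%. The low class held 7 of the 20 gut-draining and 3 of the 5 inguinal libraries, so the 2 classes were not evenly spread over the sides, and leaving it out leaves 2 inguinal libraries. Pancreatic enzyme transcripts exceeded 1% of counts in 3 duodenal libraries. The nodes carried the transcripts of lymphoid tissue in every library. The leukocyte phosphatase Ptprc lay between 765 and 1339 CPM in gut-draining libraries and between 882 and 1296 CPM in inguinal libraries, and the B cell receptor gene Cd79a and the T cell receptor gene Cd3e did not pass the test between them (adjusted p = 0.12 and 0.81). CPM are counts scaled to library size after TMM normalisation. A difference is given as the log2 fold change of gut-draining over inguinal nodes ± its standard error, and its p comes from the quasi-likelihood test of edgeR with Benjamini-Hochberg adjustment. In that fold change each of the 4 gut nodes has equal weight.

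Of 18387 genes tested, 1050 (5.71%) passed an adjusted p of 0.05, and in gut-draining nodes 683 of them (3.71%) were higher and 367 (2.00%) lower. The size was at least 1 on the log2 scale for 257 of the higher and 124 of the lower genes. The means of all 4 gut nodes lay above the inguinal mean for 662 of the 683 higher genes and below it for 363 of the 367 lower genes. Because the genes were called on the average of these same 4 means, these counts are a description and no test of a shared direction. Without the libraries low in Gm19220, 447 genes passed, 404 of them among the 1050. All 20 gut-draining libraries lay above all 5 inguinal libraries for 83 genes (0.451% of those tested) and below them for 53 (0.288%).

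**Figure D1:**
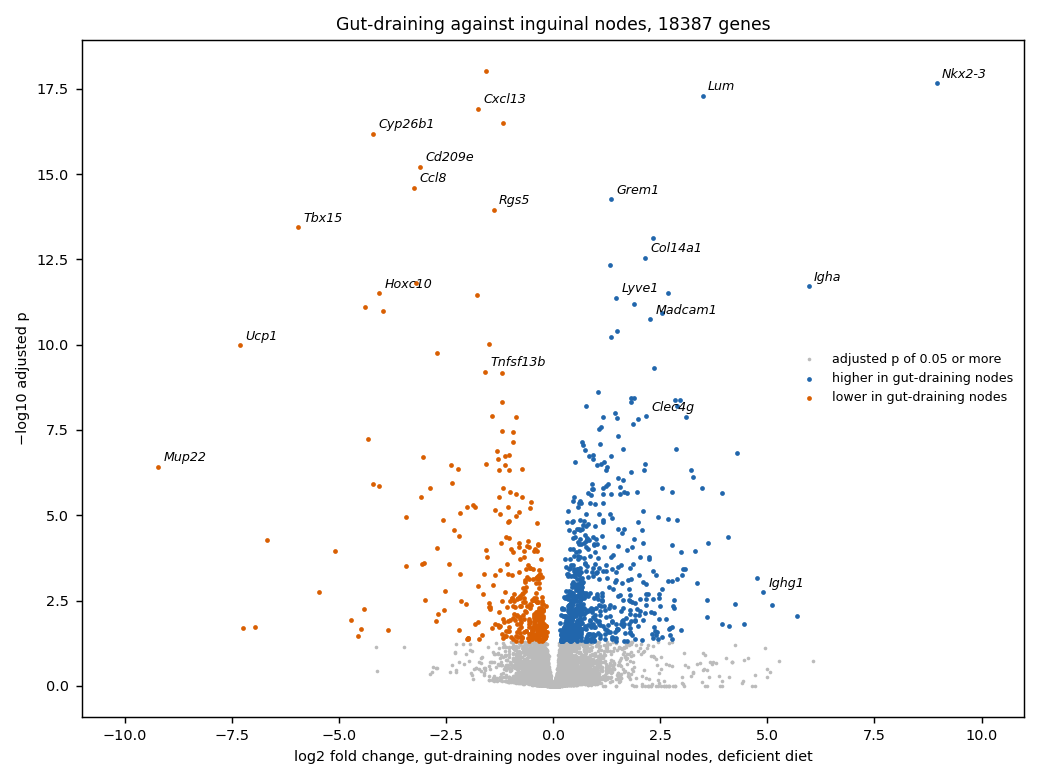
Log2 fold change of gut-draining over inguinal nodes on the deficient diet (horizontal axis) against −log10 of the adjusted p (vertical axis) for the 18387 genes tested. Blue points are the 683 genes higher and orange points the 367 genes lower in gut-draining nodes, and grey points did not pass 0.05.

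Some vascular and lymphocyte homing genes of the gut were higher in gut-draining nodes. Of 9 tested gut homing genes 5 were higher and 0 lower, with a median log2 fold change of 0.38 against −0.01 over all genes tested. The homeobox factor Nkx2-3, which specifies the endothelium and stroma of gut-associated lymphoid organs, lay between 5.31 and 10.7 CPM in the gut-draining libraries, with a median of 8.53. No inguinal library had a count of it. Against the 3 counts that the 5 inguinal libraries together could hide, its mean was at least 114-fold higher (adjusted p = 2.1e-18). Its vascular target Madcam1, the addressin bound by the gut homing integrin, lay between 15.2 and 53.2 CPM with a median of 37.1. Inguinal libraries had 6.54, 10.4, 7.69, 7.95 and 5.57 CPM of Madcam1, below every gut-draining library (2.27 ± 0.20, adjusted p = 1.8e-11). Nkx2-3 and Madcam1 did not pass the test among the 4 gut nodes (adjusted p = 0.80 and 0.43). The colon homing receptor Gpr15 was also higher, at 4.45 to 10.5 CPM in gut-draining libraries and 3.27, 3.16, 3.15, 3.47 and 4.58 CPM in inguinal libraries (1.03 ± 0.13, adjusted p = 3.3e-07). Its ligand Gpr15lg passed more narrowly (0.66 ± 0.20, adjusted p = 0.044) and lost its call in 17 of the 22 other settings tried. The fractalkine receptor Cx3cr1 was the remaining member that rose (0.38 ± 0.09, adjusted p = 0.0062). Ccr9 (0.02, adjusted p = 0.98), Ccl25 (0.15, adjusted p = 0.77), Itga4 (−0.002) and Itgb7 (−0.0002) did not pass. In bulk nodes, fewer cells of a type and less RNA per cell cannot be told apart.

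**Figure D2:**
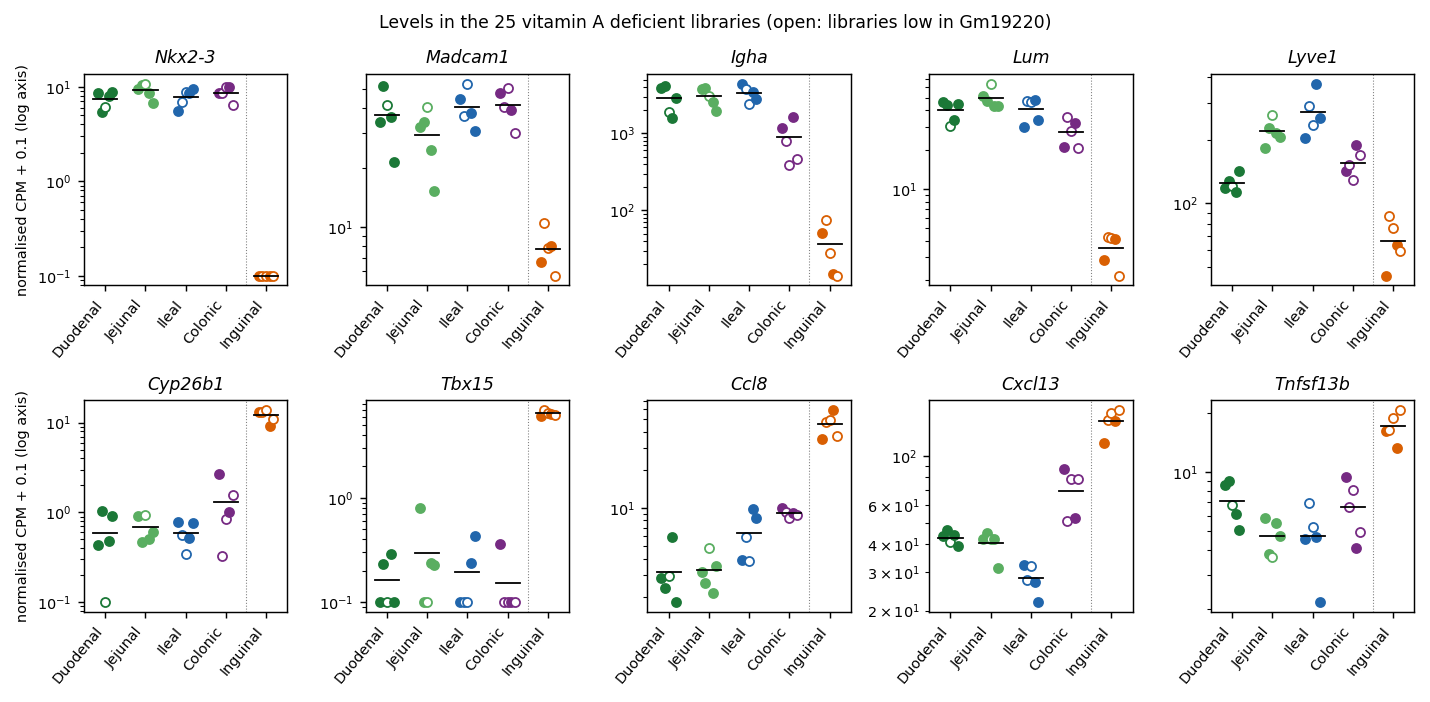
Normalised CPM plus 0.1, on a log axis, of 10 genes in each of the 25 deficient libraries, by node, with the 4 gut-draining nodes left of the inguinal node. Points are libraries, bars are means of 5, and open points are the libraries low in Gm19220. Nkx2-3, Madcam1, Igha, Lum and Lyve1 lay above every inguinal library and Cyp26b1, Tbx15, Ccl8, Cxcl13 and Tnfsf13b below every one.

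Madcam1 spans positions 79664559 to 79668537 on the plus strand of chromosome 10 (GRCm38, GENCODE M21), and Nkx2-3 spans 43612325 to 43615892 on the plus strand of chromosome 19. The 250 bases before the Madcam1 start are shown because factors of the NK2 homeobox class, to which Nkx2-3 belongs, bind a short core, AAGTG. The sequence is that of RefSeq (GRCm38.p6, chr10:79664309-79664558, plus strand), 5′ to 3′, with the core in capitals.
Madcam1: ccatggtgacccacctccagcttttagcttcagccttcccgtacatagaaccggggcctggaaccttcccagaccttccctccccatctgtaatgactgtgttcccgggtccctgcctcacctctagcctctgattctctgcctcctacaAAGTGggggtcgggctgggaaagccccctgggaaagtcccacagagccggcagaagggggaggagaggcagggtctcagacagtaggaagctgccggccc
The core occurs 1 time, on the plus strand, from base 151 to base 155 of this window. Searched on both strands, it is present in 40.7% of the 32851 promoter windows of this length, so its presence here is a description and not a binding site. The motif was chosen after the values of both genes were seen.

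Among genes that passed the threshold and averaged at least 5 CPM in gut-draining nodes, antibody genes made up 12 of the 15 largest rises. The 18387 genes tested held 12 constant genes and 184 variable segments. Of 12 tested immunoglobulin constant genes 7 were higher and 1 lower, with a median log2 fold change of 1.63, and all 20 gut-draining libraries lay above all 5 inguinal libraries for 5 of the 12 (background 0.451%). The heavy chain of IgA, the class secreted at mucosal surfaces, had node means of 2893 CPM (duodenal), 3048 CPM (jejunal), 3381 CPM (ileal) and 897 CPM (colonic). Inguinal libraries had 51.0, 75.0, 27.6, 14.9 and 14.1 CPM of Igha (5.96 ± 0.49, adjusted p = 2.0e-12). Even the lowest gut-draining library, at 388 CPM, stood above the highest inguinal one. The gene is a constant segment on the minus strand of chromosome 12, positions 113254830 to 113260236 (GRCm38). The rise extended beyond IgA, to classes that circulate in blood. Ighg2b ranged from 922 to 5114 CPM in gut-draining libraries, with inguinal libraries at 44.5, 380, 572, 170 and 24.0 CPM (3.31 ± 0.59, adjusted p = 0.00011). Ighg1 reached 6667 CPM with a median of 185 CPM in gut-draining libraries, so a few libraries held most of it, and inguinal libraries had 2.52, 28.2, 37.4, 4.81 and 3.71 CPM (4.90 ± 1.07, adjusted p = 0.0018). The IgE heavy chain Ighe was much scarcer, at a median of 4.55 CPM in gut-draining libraries, and 3 of the 5 inguinal libraries had none (5.10, adjusted p = 0.0042). The kappa chain Igkc rose with them (1.64 ± 0.20, adjusted p = 1.2e-07), as did Ighg3 (1.91 ± 0.51, adjusted p = 0.013), whereas Ighd, carried by naive B cells, was lower (−0.39 ± 0.11, adjusted p = 0.018). Of 184 immunoglobulin variable segments tested, 64 were higher and 0 lower. Without the libraries low in Gm19220, 3 constant genes were higher and 0 lower, and Ighg1 (adjusted p = 0.054), Ighe (0.30), Ighg3 (0.14) and Ighd (0.091) did not pass. Ighd lost its call in 9 and Ighg3 in 7 of 22 settings, single inguinal libraries left out among them. Variable segments with the largest changes varied between libraries of the same node, as for Ighv1-42, which lay between 1.49 and 852 CPM in gut-draining libraries. Constant and variable segments resemble one another closely, so reads may have been shared among them and the level of a single segment is uncertain.

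The machinery of secretion moved with the antibody genes. In the plasma cell list 11 of 18 genes passed as higher and 0 as lower, with a median of 0.54. The joining chain Jchain, which links IgA dimers and IgM pentamers, lay between 439 and 1185 CPM in gut-draining libraries and at 29.8, 159, 241, 76.0 and 28.1 CPM in inguinal libraries (2.77 ± 0.40, adjusted p = 2.1e-06). It did not pass the test among the gut nodes (adjusted p = 0.97), although Igha did (adjusted p = 0.0096), with colonic nodes lowest. Xbp1, the transcription factor of the unfolded protein response that plasma cells need, rose less (0.67 ± 0.11, adjusted p = 2.6e-05), and here too the groups did not overlap. Genes of protein folding and quality control in the endoplasmic reticulum rose as well, among them Derl3 (2.09 ± 0.34, adjusted p = 2.7e-05), Creld2 (0.84 ± 0.14, adjusted p = 5.4e-05), Txndc5 (0.47 ± 0.08, adjusted p = 9.8e-05) and Mzb1 (0.74 ± 0.14, adjusted p = 0.00025). Without the libraries low in Gm19220 the list counted 8 higher and 0 lower, and in those libraries alone 2 higher and 0 lower. In the latter, Xbp1 (adjusted p = 0.092), Creld2 (0.11), Txndc5 (0.15) and Mzb1 (0.094) did not pass. The promoters of Derl3 and Creld2 are shown because they carry the endoplasmic reticulum stress response element, which factors of that response bind and which reads CCAAT and CCACG with 9 free bases between them. Both are the 250 bases before the start in RefSeq (GRCm38.p6, plus strand), at chr10:75893148-75893397 and chr15:88819396-88819645, with the element in capitals as it reads on the opposite strand.
Derl3: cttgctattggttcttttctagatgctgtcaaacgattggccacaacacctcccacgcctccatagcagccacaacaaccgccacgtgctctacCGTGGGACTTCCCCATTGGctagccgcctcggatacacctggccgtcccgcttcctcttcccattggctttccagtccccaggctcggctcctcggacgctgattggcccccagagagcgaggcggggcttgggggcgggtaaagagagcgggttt
Creld2: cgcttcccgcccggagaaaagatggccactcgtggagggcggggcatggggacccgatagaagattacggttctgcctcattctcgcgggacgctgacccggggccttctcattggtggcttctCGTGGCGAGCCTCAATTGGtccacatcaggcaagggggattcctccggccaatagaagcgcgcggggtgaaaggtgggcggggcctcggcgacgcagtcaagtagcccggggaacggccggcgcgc
The element is present in 0.113% of the 32851 windows, searched on both strands, and in 2 of the 10 rising plasma cell genes that have a window. Those 10 genes have 15 windows, so a share of genes and a share of windows are unlike measures. Whether the element is more frequent in these genes was not tested. The element was chosen after the values were seen.

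B cell genes went the other way. The B cell list, with 16 genes tested, counted 0 higher and 10 lower, with a median log2 fold change of −0.32, and all 16 were lower at an unadjusted p under 0.05. The B lineage factor Pax5 lay between 179.9 and 339.7 CPM in gut-draining libraries and at 436, 364, 333.5, 330.4 and 285 CPM in inguinal libraries (−0.53 ± 0.10, adjusted p = 0.00036), so the groups overlapped. The scaffold Bank1 also fell (−0.38 ± 0.07, adjusted p = 0.00011). Without the libraries low in Gm19220, 5 of the 16 were called lower, and in those libraries alone 0 were. Of 13 germinal centre genes 1 was higher, Basp1 (0.50 ± 0.11, adjusted p = 0.0012), which averaged 118 CPM in duodenal and 60.2 CPM in colonic nodes against 58.2 CPM in inguinal nodes.

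Reticular stroma of the T and B zones held more lower than higher genes, 8 lower and 4 higher of 18 tested. The follicle chemokine Cxcl13 lay between 21.8 and 87.5 CPM in gut-draining libraries and at 114, 146, 156, 144 and 161 CPM in inguinal libraries (−1.75 ± 0.10, adjusted p = 1.2e-17). The B cell survival factor BAFF, encoded by Tnfsf13b, lay between 2.08 and 9.36 CPM and at 16.1, 16.3, 18.8, 13.1 and 20.5 CPM in inguinal libraries (−1.60 ± 0.16, adjusted p = 6.1e-10). Both were below the lowest inguinal library in every gut-draining library. The cholesterol hydroxylase Ch25h, which makes a B cell guidance cue, fell (−1.05 ± 0.17, adjusted p = 1.6e-05), as did the lymphocyte survival cytokine Il7 (−0.60 ± 0.12, adjusted p = 0.00066). Without the libraries low in Gm19220 the list counted 3 higher and 2 lower, and Ch25h and Il7 did not pass (adjusted p = 0.056 and 0.37). The bone morphogenetic protein antagonist Grem1, made by stroma of the medulla and T zone border, went up, at 51.9 to 99.8 CPM in gut-draining libraries and 19.9, 26.0, 27.7, 26.6 and 32.8 CPM in inguinal libraries (1.35 ± 0.09, adjusted p = 5.4e-15). Tnfsf11, the RANK ligand of marginal reticular cells, rose (0.67 ± 0.14, adjusted p = 0.00068), as did the alarmin Il33 (0.51 ± 0.11, adjusted p = 0.0025). The T zone chemokine Ccl21a did not pass (0.11 ± 0.10, adjusted p = 0.73).

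Among 20 tested genes of medullary and adventitial stroma 6 were higher and 2 lower, and among 19 collagen and proteoglycan genes 8 were higher and 1 lower, with medians of 0.21 and 0.45. The keratan sulphate proteoglycan Lum lay between 20.4 and 64.1 CPM in gut-draining libraries and at 2.77, 4.17, 4.16, 4.03 and 2.07 CPM in inguinal libraries, an 11.2-fold difference (adjusted p = 5.1e-18). Col14a1, a collagen that binds fibrils, ranged from 21.8 to 81.8 CPM, with inguinal libraries at 12.4, 11.5, 10.2, 13.2 and 6.76 CPM (2.15 ± 0.17, adjusted p = 2.8e-13). The fibrillar collagen Col3a1 (1.17 ± 0.18, adjusted p = 1.4e-05), Col12a1 (1.08 ± 0.13, adjusted p = 2.9e-08) and decorin, Dcn (0.56 ± 0.13, adjusted p = 0.0033), rose less. The growth factor Gdf10 rose in the same group (1.36 ± 0.20, adjusted p = 2.4e-06). The soluble interleukin 22 receptor Il22ra2 fell (−1.26 ± 0.17, adjusted p = 4.6e-07), with 44.9 ± 17.2 CPM in colonic nodes against 49.6 ± 7.6 CPM in inguinal nodes (SD, n = 5 each) and 12.1 to 24.6 CPM in the nodes of the small intestine.

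Transcription factors that mark body position divided the sides. Of 18 tested homeobox, GATA and T-box factors 4 were higher, Nkx2-3, Gata6, Tcf21 and Gata4, and 4 were lower, Tbx15, Prrx1, Tbx18 and Nr2f1. Gata6, a factor of visceral mesoderm and peritoneal cells, lay between 9.13 and 17.3 CPM in gut-draining libraries and at 3.65, 8.09, 9.71, 5.60 and 8.07 CPM in inguinal libraries (0.98 ± 0.19, adjusted p = 0.00027). Tbx15, a factor of limb and trunk mesenchyme and of subcutaneous fat, had a median of 0 and a highest value of 0.705 CPM in gut-draining libraries. Inguinal libraries had 6.04, 6.83, 6.43, 6.27 and 6.11 CPM of Tbx15 (−5.96 ± 0.43, adjusted p = 3.6e-14). Prrx1, a factor of limb mesenchyme, lay between 6.37 and 14.4 CPM on the gut side and at 16.6, 25.9, 18.8, 21.4 and 23.5 CPM on the inguinal side (−1.18 ± 0.12, adjusted p = 6.7e-10). Among 25 tested Hox genes 1 was higher and 2 lower. The posterior gene Hoxc10 averaged 0.0932, 0 and 0.214 CPM in duodenal, jejunal and ileal nodes but 2.33 ± 0.34 CPM in colonic nodes, against 2.98 ± 0.75 CPM in inguinal nodes (SD, n = 5 each) (−4.05 ± 0.32, adjusted p = 3.1e-12). Hoxc9 was the other one that fell (adjusted p = 0.012), and Hoxd10 rose (0.84 ± 0.25, adjusted p = 0.030). They lost their calls in 6 (Hoxc9) and 11 (Hoxd10) of 22 settings. Without the libraries low in Gm19220, 2 positional genes were called higher and 3 lower, and 0 Hox genes higher and 1 lower.

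Genes of lymphatic endothelium and several macrophage genes were higher. The list of lymphatic endothelium counted 13 higher and 0 lower of 20 tested, with a median log2 fold change of 0.77, and the summed level of the list was 985 to 2656 CPM in gut-draining libraries and 543 to 856 CPM in inguinal libraries. The hyaluronan receptor Lyve1 lay between 113 and 371 CPM and at 45.2, 87.0, 76.1, 63.5 and 59.0 CPM in inguinal libraries (1.48 ± 0.13, adjusted p = 4.2e-12). Clec4g, a lectin of medullary sinuses, had 6.10 to 21.2 CPM, and inguinal libraries had 1.76, 2.15, 5.17, 2.24 and 2.18 CPM (2.18 ± 0.25, adjusted p = 1.2e-08). The receptor of lymphatic growth factors Flt4 (1.16 ± 0.13, adjusted p = 1.4e-08) and the lineage factor Prox1 (0.77 ± 0.14, adjusted p = 8.6e-05) rose together with the scavenger receptor Stab2 (1.11 ± 0.13, adjusted p = 2.6e-08). Of 17 tested macrophage genes 8 were higher and 2 lower. Marco, a scavenger receptor shared by sinus endothelium and macrophages and counted in both lists, lay between 298 and 1470 CPM against 182, 277, 215, 233 and 157 CPM in inguinal libraries (1.90 ± 0.16, adjusted p = 6.2e-12). The colony stimulating factor receptor Csf1r (0.63 ± 0.09, adjusted p = 3.8e-06) and the complement gene C1qb (0.60 ± 0.12, adjusted p = 0.00052) rose. Siglec1 (0.45, adjusted p = 0.17), Cd209b (0.32, adjusted p = 0.23), Mrc1 (0.26, adjusted p = 0.36), Cd68 (0.23, adjusted p = 0.49) and Folr2 (0.11, adjusted p = 0.88) did not pass. The phosphatidylserine receptor Timd4, by contrast, lay between 65.6 and 182 CPM in gut-draining libraries and at 142, 198, 162, 200 and 189 CPM in inguinal ones (−0.85 ± 0.10, adjusted p = 1.4e-08). The lectin genes Cd209f (adjusted p = 5.7e-06) and Cd209e (−3.10 ± 0.20, adjusted p = 6.1e-16) fell with it, though members of this family resemble one another and may share reads. The counts became 7 of 20 higher for lymphatic endothelium and 3 higher and 2 lower of 17 for macrophages without the libraries low in Gm19220.

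Several blood vessel genes were lower. Of 15 tested genes of high endothelial venules, through which lymphocytes enter, 1 was higher, the protease Ctsl (0.46 ± 0.10, adjusted p = 0.00091), and 7 were lower, with a median of −0.35. Endomucin, Emcn, lay between 3.32 and 9.07 CPM in gut-draining libraries and at 11.4, 9.99, 12.5, 12.1 and 13.3 CPM in inguinal libraries (−1.03 ± 0.14, adjusted p = 4.7e-07). The ubiquitin-like gene Ubd (−0.72 ± 0.10, adjusted p = 4.4e-07) and the lysophospholipase Enpp2, whose product helps lymphocytes cross the venule (−0.39 ± 0.08, adjusted p = 0.00070), fell too, though Enpp2 was at −0.13 without the libraries low in Gm19220 (adjusted p = 0.80). There the venule list counted 1 higher and 4 lower. Rgs5, a marker of pericytes, lay between 13.7 and 44.3 CPM and at 66.8, 75.3, 78.7, 62.5 and 75.5 CPM in inguinal libraries (−1.39 ± 0.10, adjusted p = 1.1e-14). It was 1 of 3 lower genes among 12 of smooth and skeletal muscle, with Des (−0.35 ± 0.06, adjusted p = 7.3e-05) and Myh11 (−0.67 ± 0.15, adjusted p = 0.0027), and none was higher. Without the libraries low in Gm19220, 1 of the 12 was lower, and Des (adjusted p = 0.21) and Myh11 (adjusted p = 0.45) did not pass.

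Some skin homing genes and some dendritic cell genes, langerin among them, were lower in gut-draining nodes. Of 10 tested skin homing genes 0 were higher and 4 lower, with a median of −0.56. The chemokine Ccl8, which attracts cells bearing Ccr8 and is made in mouse skin, lay between 1.72 and 10.0 CPM in gut-draining libraries and at 34.7, 47.8, 49.3, 59.1 and 36.5 CPM in inguinal libraries (−3.24 ± 0.22, adjusted p = 2.5e-15). The skin homing receptors Ccr10 (−1.57 ± 0.20, adjusted p = 3.1e-07) and Ccr4 (−0.93 ± 0.17, adjusted p = 0.00012) fell. The dendritic cell list counted 4 higher and 5 lower of 22. Epcam (0.26, adjusted p = 0.57), Fscn1 (0.35, adjusted p = 0.088), Ccr7 (0.06, adjusted p = 0.85) and Cacnb3 (−0.12, adjusted p = 0.86) were among those that did not pass. Langerin, Cd207, which marks Langerhans cells and a dermal dendritic subset, lay between 2.06 and 7.34 CPM and at 8.30, 10.5, 8.82, 14.3 and 14.5 CPM in inguinal libraries (−1.36 ± 0.21, adjusted p = 7.0e-06). The lectins Cd209a (−1.26 ± 0.18, adjusted p = 2.9e-06) and Mgl2 (−0.93 ± 0.22, adjusted p = 0.0046), found on type 2 dendritic cells, fell as well, while Sirpa, another marker of these cells, was slightly higher (0.18, adjusted p = 0.042). Among markers of type 1 dendritic cells the receptor Clec9a rose (0.74 ± 0.14, adjusted p = 0.00026), but Xcr1 (0.02, adjusted p = 0.98), Batf3 (0.07, adjusted p = 0.89) and Itgae (−0.21, adjusted p = 0.30) did not pass. The counts became 2 higher and 2 lower without the libraries low in Gm19220, where Mgl2 did not pass (adjusted p = 0.21). Also higher was the dendritic lineage factor Zbtb46 (0.38 ± 0.09, adjusted p = 0.0054).

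T cell genes differed little. Of 18 tested T cell genes 1 was higher, the naive T cell factor Lef1 (0.37 ± 0.10, adjusted p = 0.0099), and 0 were lower, with 4 higher and 1 lower at an unadjusted p under 0.05. Of 14 regulatory T cell genes 1 was higher, Lrrc32 (0.58 ± 0.16, adjusted p = 0.014), which is also made by endothelium, and the lineage factor Foxp3 did not pass (−0.28 ± 0.14, adjusted p = 0.29). Lef1 lost its call in 4 and Lrrc32 in 6 of 22 settings, and neither passed without the libraries low in Gm19220 (adjusted p = 0.56 and 0.31). The chemokine Ccl5 was the 1 lower gene of 15 cytotoxic genes, at 80.5 to 262 CPM in gut-draining libraries and 323, 231, 221, 252 and 200 CPM in inguinal libraries (−0.81 ± 0.12, adjusted p = 7.8e-06). The granzyme Gzmc, outside that list and among the largest falls, had a median of 0.588 CPM and 8.43, 8.72, 6.18, 4.81 and 6.44 CPM in inguinal libraries (−3.20 ± 0.26, adjusted p = 1.6e-12).

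Neutrophil and monocyte genes were lower, with 0 higher and 10 lower of 17 tested and a median of −1.34. The monocyte chemokine receptor Ccr2 gave the most even difference, between 14.9 and 28.8 CPM in gut-draining libraries and at 42.3, 36.7, 37.4, 40.7 and 49.97 CPM in inguinal libraries (−0.73 ± 0.11, adjusted p = 2.9e-06). Granule genes such as Ngp (adjusted p = 0.0030) and Ltf (−2.55 ± 0.62, adjusted p = 0.0059) varied widely, since Ltf had at most 4.03 CPM in gut-draining libraries, 15.7 CPM in 1 inguinal library and 2.02 to 3.49 CPM in the other 4. In all, 1 of the 17 was called without the libraries low in Gm19220. Mast cell, basophil and eosinophil genes were counted at 3 higher and 0 lower of 12. The tryptase Tpsab1 averaged 9.48 and 8.81 CPM in duodenal and jejunal nodes, 2.56 CPM in ileal nodes and 0.201 CPM in colonic nodes against 0.671 CPM in inguinal nodes (1.90 ± 0.44, adjusted p = 0.0038). The IgE receptor Fcer1a (1.80 ± 0.44, adjusted p = 0.0059) and the granule protein Prg2 (1.11 ± 0.27, adjusted p = 0.0047) also rose. With the low class left out, 1 of the 12 was called. It was none of these, since Tpsab1 (adjusted p = 0.058), Fcer1a (0.065) and Prg2 (0.12) did not pass there.

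**Figure D3:**
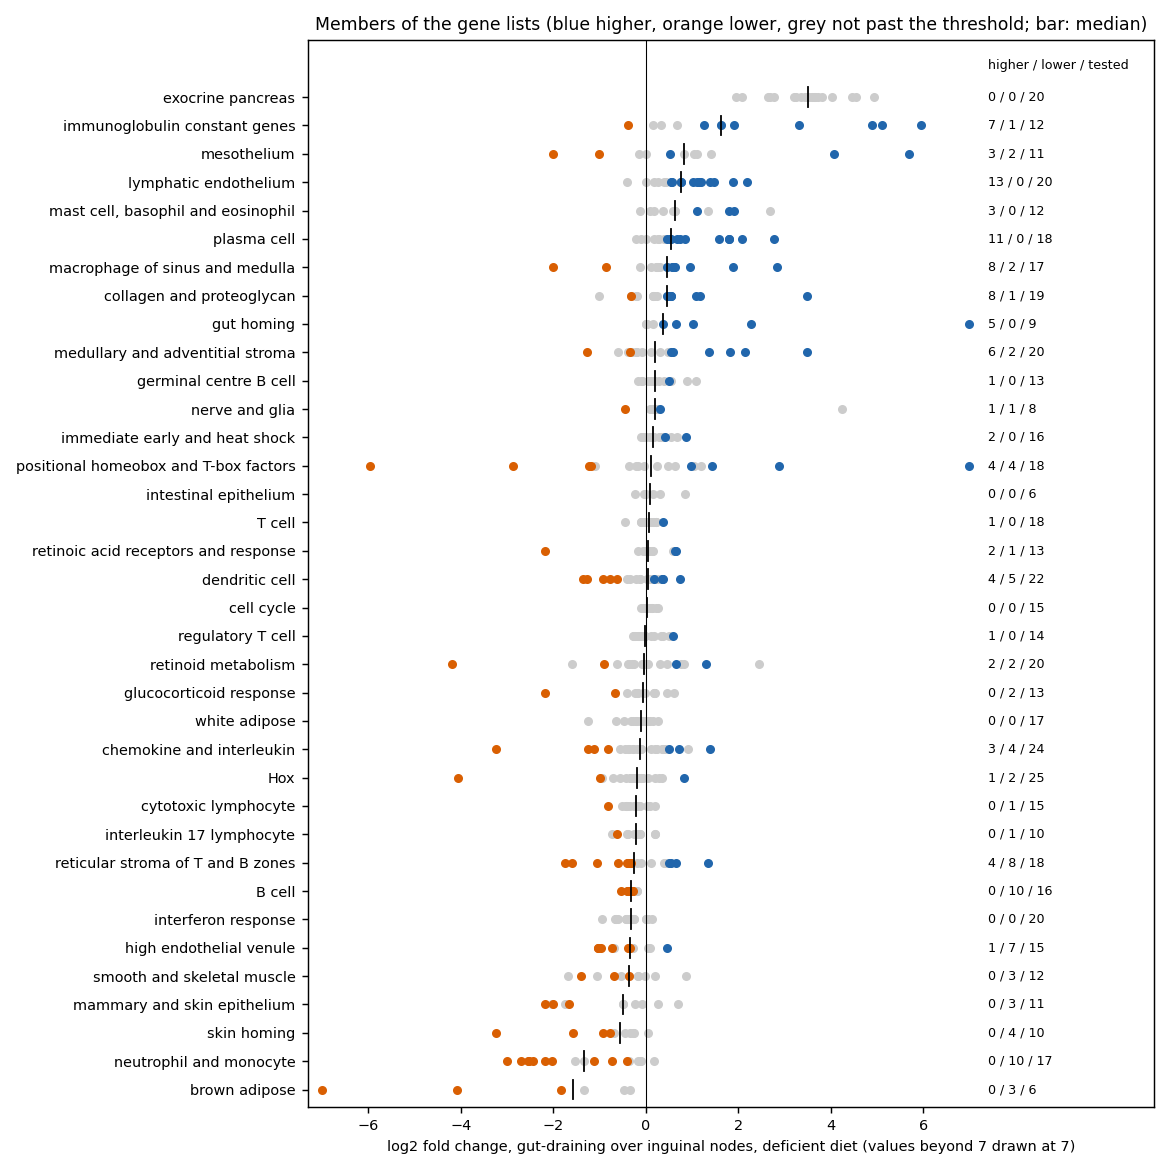
Log2 fold change of gut-draining over inguinal nodes for each tested member of 36 gene lists, in order of the list median (black bar). Blue members were higher, orange members lower and grey members did not pass 0.05, and the numbers at the right count higher, lower and tested members. Lymphatic endothelium (13 higher of 20) and plasma cells (11 of 18) lie toward the right, and B cells (10 lower of 16) and neutrophils and monocytes (10 lower of 17) toward the left.

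Retinoid genes moved in both directions. Of 20 tested genes of retinoid metabolism 2 were higher and 2 lower, with a median log2 fold change of −0.04. On the side of uptake, the retinol transporter Stra6 lay between 0.875 and 5.10 CPM in gut-draining libraries and at 0.755, 1.77, 1.51, 0.560 and 1.20 CPM in inguinal libraries (1.31 ± 0.28, adjusted p = 0.0013). Lrat, which esterifies retinol for storage, had a median of 1.09 CPM in gut-draining libraries and 1.89, 2.28, 2.90, 1.34 and 3.49 CPM in inguinal libraries (−0.90 ± 0.23, adjusted p = 0.011). This call was lost in 7 of the other 22 settings, and Lrat was at −0.21 without the libraries low in Gm19220 (adjusted p = 0.93). The list there counted 2 higher and 1 lower. In the low libraries alone Lrat was at −1.44 and Stra6 at 1.07. Among the enzymes that interconvert retinol and retinal, the reductase Dhrs3 rose (0.66 ± 0.14, adjusted p = 0.00086), and the dehydrogenase Rdh10 did not pass (−0.26 ± 0.09, adjusted p = 0.078). Dhrs3 was at 0.80 without the low libraries (adjusted p = 0.017) and at 0.50 in them alone. The 3 retinaldehyde dehydrogenases, which make retinoic acid, did not pass with all libraries. Aldh1a2 was at 0.865 to 5.51 CPM in gut-draining and 0.764 to 2.53 CPM in inguinal libraries (0.82 ± 0.32, adjusted p = 0.15). Aldh1a1 was at 5.39 to 27.6 CPM and 3.90 to 12.3 CPM (0.77 ± 0.27, adjusted p = 0.092), and passed without inguinal library 3 (adjusted p = 0.043). Aldh1a3 was at 4.20 to 10.9 CPM and 3.40 to 5.60 CPM (0.45 ± 0.19, adjusted p = 0.20).

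The enzyme that breaks retinoic acid down gave the largest retinoid difference. Cyp26b1, on the minus strand of chromosome 6 at 84571414 to 84593908 (GRCm38), lay between 0 and 2.60 CPM in gut-draining libraries with a median of 0.579. Inguinal libraries had 13.1, 13.2, 13.7, 9.18 and 10.9 CPM, an 18.3-fold difference (−4.19 ± 0.25, adjusted p = 6.6e-17). The 4 gut nodes averaged 0.489, 0.587, 0.491 and 1.19 CPM in the order duodenal, jejunal, ileal and colonic, and did not differ past the threshold among themselves (adjusted p = 0.31). Of 13 tested retinoic acid receptors and response genes 2 were higher and 1 lower. The repressor Hic1, induced by retinoic acid, lay between 4.08 and 10.6 CPM and at 3.40, 5.82, 4.03, 4.59 and 3.71 CPM in inguinal libraries (0.64 ± 0.13, adjusted p = 0.00092). The transglutaminase Tgm2 rose by a like amount (0.65 ± 0.14, adjusted p = 0.0015). Without the libraries low in Gm19220, Hic1 was at 0.80 (adjusted p = 0.0059) and Tgm2 at 0.94 (adjusted p = 0.0031). In those libraries alone they were at 0.50 and 0.47. The lower one, Lcn2 (−2.17 ± 0.43, adjusted p = 0.00054), is a lipocalin of neutrophils and epithelia and stands in 3 other lists as well.

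**Figure D4:**
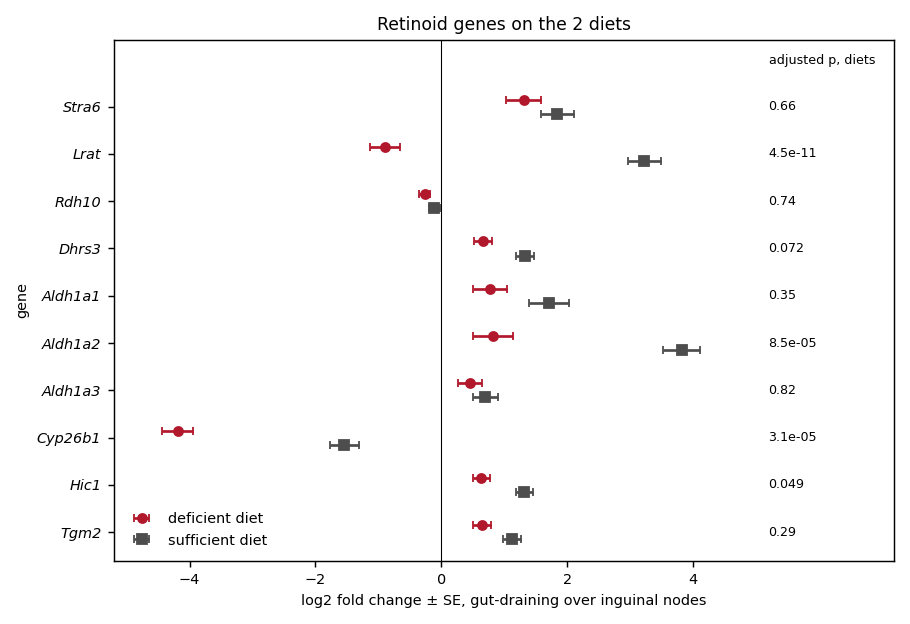
Log2 fold change ± SE of gut-draining over inguinal nodes for 10 retinoid genes on the deficient diet (red circles, upper of each pair) and the sufficient diet (grey squares). The adjusted p of the difference between diets stands at the right, and is lowest for Lrat (4.5e-11), followed by Cyp26b1 (3.1e-05) and Aldh1a2 (8.5e-05).

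The same contrast was tested between diets with an interaction term, which asks whether the regional difference itself differs. Diet was given to dams, so litter and dam cannot be told apart from diet. Only the sufficient group held both sexes, with the same mix in every node, and the sex term in the fit is estimated from it alone. That term is the same for every node, so it does not adjust a gut-draining over inguinal difference. A regional difference that depends on sex therefore cannot be told apart from diet either. On the sufficient diet alone, 9.69% of genes were higher and 7.22% lower. In the interaction test 169 of 18387 genes (0.919%) passed, 73 with a more positive and 96 with a more negative gut-draining over inguinal difference on the deficient diet, and 46 of them also passed within the deficient diet. The count of 169 fell to 19 without the libraries low in Gm19220. Of those 46, 13 were higher in gut-draining nodes with a more positive difference than on the sufficient diet, 17 were lower with a more negative difference, 15 were higher with a less positive one and 1 was lower with a less negative one. For Lrat the log2 fold change was −0.90 on the deficient and 3.23 on the sufficient diet, a difference of −4.12 ± 0.34 (adjusted p = 4.5e-11). Aldh1a2 differed by −2.99 ± 0.45 (adjusted p = 8.5e-05), with gut node means of 1.98 to 2.99 CPM on the deficient diet and of 17.3 CPM (colonic) to 55.0 CPM (duodenal) on the sufficient diet. The inguinal level moved less, at 1.43 and 2.56 CPM on the deficient and sufficient diets. The wider gap of Cyp26b1 on the deficient diet (difference −2.65 ± 0.38, adjusted p = 3.1e-05) came with gut node means of 0.489 to 1.19 CPM on the deficient diet and up to 12.9 CPM on the sufficient diet, and with inguinal means of 12.01 and 20.1 CPM. Nkx2-3 and Madcam1 (adjusted p = 0.74 and 0.26), Igha (adjusted p = 0.39) and Lum (adjusted p = 0.83) did not pass this test. For Madcam1 the difference was −0.70 ± 0.27 and for Lum 0.22 ± 0.25.

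Several named genes outside the retinoid lists also differed between diets. Tpsab1 was higher in gut-draining nodes on the deficient diet with all libraries. Its log2 fold change was −3.70 on the sufficient diet, where gut node means were at most 0.045 CPM (difference 5.60 ± 0.83, adjusted p = 8.5e-05). Gpr15lg, higher in gut-draining nodes on the deficient diet (0.66), was lower there on the sufficient diet (−1.45), a difference of 2.11 (adjusted p = 2.5e-05). The skin protease Asprv1 was at 3.96 to 26.0 CPM in gut-draining and 2.40 to 3.90 CPM in inguinal libraries of the deficient diet (1.87 ± 0.22, adjusted p = 2.1e-08), with −0.16 on the sufficient diet. Scart2, a scavenger receptor of gamma delta T cells, averaged 31.1 ± 4.0 CPM in gut-draining and 62.1 ± 11.8 CPM in inguinal nodes on the deficient diet (−0.99 ± 0.14) and had −2.30 on the sufficient diet. The monocyte chemokine Ccl2 was higher in gut-draining nodes on the deficient diet (1.40 ± 0.25, adjusted p = 0.00015), with −0.33 on the sufficient diet and a difference of 1.73 ± 0.33 (adjusted p = 0.0031). The secreted peroxidase Gpx3 was lower on the deficient diet (−1.18 ± 0.14, adjusted p = 3.5e-08) and had 0.30 on the sufficient diet. Of 18 T cell genes 8 differed between diets, with a more positive difference on the deficient diet for Cd28 (0.56, adjusted p = 0.0022) and Tcf7 (0.66, adjusted p = 0.014).

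The gut side was not uniform. A test among the 4 gut-draining nodes gave 1153 genes (6.27%), and it held 326 of the 683 genes that were higher and 72 of the 367 that were lower against inguinal nodes. This count of 1153 became 653 without the libraries low in Gm19220 and 631 without the 3 duodenal libraries high in pancreatic RNA. One set was highest in ileal nodes. Cd5l, an apoptosis inhibitor secreted by macrophages, averaged 246 ± 37 CPM in ileal, 93.7 ± 33.9 CPM in jejunal, 76.2 ± 30.0 CPM in colonic and 21.3 ± 6.0 CPM in duodenal nodes against 10.9 ± 4.9 CPM in inguinal nodes (SD, n = 5 each). The endothelin receptor Ednrb was likewise highest in ileal nodes, at 8.04 (duodenal), 30.8 (jejunal), 76.3 (ileal) and 24.5 CPM (colonic) against 4.50 CPM in inguinal nodes (adjusted p among nodes 3.0e-12). A different set was highest in duodenal nodes and lower in ileal and colonic nodes. Apol7c, an apolipoprotein L gene, averaged 679 (duodenal), 461 (jejunal), 229 (ileal) and 198 CPM (colonic) against 123 CPM in inguinal nodes, and all 20 gut-draining libraries lay above all 5 inguinal ones. Lad1 averaged 75.6, 55.0, 24.1 and 20.6 CPM in the same node order against 19.6 CPM in inguinal nodes, and Tbc1d4 and Pla2g4f were also highest in duodenal nodes. The duodenal value of Gadd45b, a stress-response gene, was 109 CPM while the other 3 gut nodes averaged 51.0 to 79.6 CPM and inguinal nodes 54.4 CPM. Another set, with Hoxc10, Il22ra2, the lipase Lipg and Bpifb3, was low in the small intestinal nodes and nearest to the inguinal level in colonic nodes. Of 22 dendritic cell genes 16 passed among the gut nodes, as did 15 of 20 interferon response genes and 11 of 14 regulatory T cell genes.

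**Figure D5:**
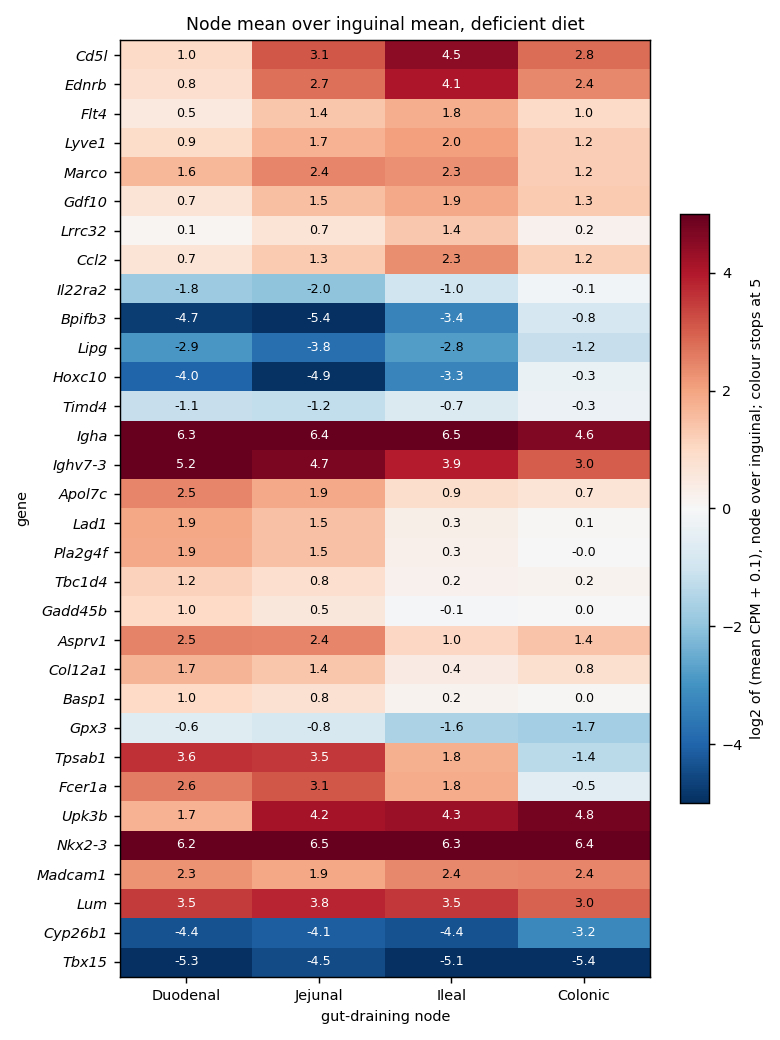
Log2 ratio of each gut-draining node's mean to the inguinal mean on the deficient diet, computed on CPM plus 0.1, for 32 genes. Red is higher and blue lower than inguinal nodes, and colours stop at 5. Cd5l was highest in ileal nodes (4.48), Apol7c in duodenal nodes (2.46), and Hoxc10 was near the inguinal level only in colonic nodes (−0.34), whereas Nkx2-3 lay between 6.21 and 6.53 in all 4.

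Transcripts of neighbouring tissues were measured as a check on the dissected nodes, and their part in the differences above was not tested. Brown fat genes were lower, 3 of 6 tested. The uncoupling protein Ucp1 was at most 0.235 CPM in gut-draining libraries and at 0.126, 8.47, 24.6, 9.18 and 0.436 CPM in inguinal ones (−7.31 ± 0.67, adjusted p = 1.0e-10), and the summed list was 4.70 to 19.0 CPM in gut-draining and 6.79 to 107 CPM in inguinal libraries. White fat genes gave 0 higher and 0 lower of 17 with edgeR, DESeq2 and limma-voom, and 1 at an unadjusted p under 0.05, with sums of 641 to 5700 CPM and 767 to 5270 CPM. Among 11 epithelial genes of mammary gland and skin, Lcn2, Elf5 and Krt19 were lower, and Krt5, Krt14 and Krt15 were too low to test. Krt19 lost its call in 14 of 22 settings, DESeq2 and limma-voom among them, Elf5 lost its in 8 of 21, and 0 of the 11 were called without the libraries low in Gm19220. Mesothelial genes counted 3 higher and 2 lower of 11, and 1 higher and 1 lower without those libraries. The higher one there was Gpm6a (adjusted p = 0.015), which lost its call in 5 of 22 settings. Upk3b (adjusted p = 0.069) and Muc16 (0.19) did not pass without those libraries. Upk3b, which marks the lining of the peritoneum, was at 0 to 16.5 CPM in gut-draining and 0.252, 0, 0.126, 0.560 and 0.218 CPM in inguinal libraries (4.08 ± 0.69, adjusted p = 4.5e-05), with the highest mean, 9.04 CPM, in colonic nodes. Muc16 had no count in inguinal libraries and a count in 19 of 20 gut-draining ones. Exocrine pancreas genes gave 0 calls of 20 with edgeR and limma-voom, 15 higher with DESeq2 and 11 higher at an unadjusted p under 0.05, with summed levels up to 301100 CPM in 1 duodenal library and 18.8 to 29.0 CPM in inguinal nodes. All 20 differed among the gut nodes. Of 6 intestinal epithelial genes 0 passed with edgeR, DESeq2 or limma-voom and 1 was higher at an unadjusted p under 0.05, and of 8 nerve and glia genes 1 was higher and 1 lower.

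Cell cycle and interferon genes had no call. Of 15 cell cycle genes 0 passed with edgeR, DESeq2 or limma-voom, and 0 were under an unadjusted p of 0.05. Of 20 interferon response genes 0 passed with any of the 3, with 2 lower at an unadjusted p under 0.05. The interferon sums ranged from 931 to 4657 CPM in gut-draining and 785 to 2661 CPM in inguinal libraries, and Ifit3 alone ranged from 16.0 to 446 CPM and from 11.9 to 240 CPM. Of 24 chemokine and interleukin genes 3 were higher and 4 lower, Ccl8 with the largest difference, and 1 was higher and 2 lower without the libraries low in Gm19220. Among 16 immediate early and heat shock genes 2 were higher, Jun (0.41 ± 0.10, adjusted p = 0.0054) and Atf3 (0.87 ± 0.23, adjusted p = 0.012), and among 13 glucocorticoid response genes 2 were lower, Lcn2 and Il1r2 (−0.66 ± 0.16, adjusted p = 0.0064). Both lists had 0 calls without the libraries low in Gm19220 (adjusted p = 0.058 for Jun, 0.12 for Atf3, 0.17 for Lcn2 and 0.54 for Il1r2), and Atf3 and Il1r2 lost theirs in 5 of 22 settings each.

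The remaining large falls varied widely between libraries. The urinary protein gene Mup22, of a family of near-identical copies, was at 0 to 2.19 CPM in gut-draining libraries and at 3.15, 42.4, 32.4, 34.2 and 15.3 CPM in inguinal ones (adjusted p = 3.8e-07). Cyp2f2 had a median of 0.383 CPM in gut-draining libraries and 1.64, 2.02, 7.31, 6.60 and 10.2 CPM in inguinal libraries (−3.42 ± 0.53, adjusted p = 1.1e-05). Ccl21d, which resembles other Ccl21 genes so closely that its reads may be shared with them, had a median of 0.705 CPM in gut-draining and 3.90, 34.1, 19.7, 4.70 and 1.09 CPM in inguinal libraries (−3.42 ± 0.65, adjusted p = 0.00030). The pseudogene Rps13-ps2 was called lower (adjusted p = 0.020) although it had counts in 1 gut-draining library, at 20.8 CPM, and 1 inguinal library, at 50.2 CPM, and 0 in the other 23.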

How the data were processed

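The authors deposited 1 table of estimated counts per gene for all 50 libraries. Per the submitters' processing notes, kallisto, edgeR and limma were used, with mm10 and GRCm39 as builds. Versions, and which step used which, were not stated there. Columns carrying the word 3rd were taken as the deficient diet, because the other 25 are named control. Estimated counts were rounded to whole numbers, filtered with filterByExpr, scaled with TMM and fitted in 1 model of all 50 libraries, with a mean per diet and node and a sex term (edgeR 4.0.16, limma 3.58.1, R 4.3.3). Standard errors were derived from each log2 change and its F value. The fits were tested on simulated counts. Members and lists were chosen with earlier results of these data known. Genes were named by a fixed rule: the 15 largest changes per direction with at least 5 CPM, up to 6 per list, all retinoid genes, up to 8 each for differences among nodes and between diets, and set genes. Some of these are not reported here. Promoters were matched by symbol to RefSeq windows. Alternatives comprised RLE factors, 2 other filters, limma-voom, DESeq2 1.42.0, the deficient libraries alone, no sex term, a replicate block, library classes and leaving out libraries. Figures used matplotlib 3.10.9 and Python 3.11.15.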

Additional observations from a re-analysis of the deposited data

Results flagged for a closer look

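Among 65 groups of 5 libraries (13 genes in 5 nodes), 6 held 1 library apart from the other 4 by Dixon's criterion. Groups with no spread, such as inguinal Nkx2-3, could not be flagged. For normally distributed values chance flags about 1 of 20 groups, a rate that need not hold for genes near 0. Lrat reached 3.17 CPM in 1 ileal library, next to 1.20 CPM. Tbx15 reached 0.705 CPM in 1 jejunal library, next to 0.135 CPM, and 0.26 CPM in 1 colonic library, with 0 in the others. Ccl8 reached 5.83 CPM in 1 duodenal library, next to 2.84 CPM, and Cxcl13 was 30.9 CPM in 1 jejunal library, with 42.0 CPM the next lowest. Ucp1 was 0.120 CPM in 1 ileal library and 0 in the others. A group with 0 in all libraries but 1 is flagged whatever the value, as for colonic Tbx15 and ileal Ucp1.

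The gut-draining over inguinal difference differed between diets by the interaction test of edgeR for 12 of the named genes reported here. As deficient minus sufficient log2 fold change it was more negative for Lrat (−4.12), Aldh1a2 (−2.99), Cyp26b1 (−2.65), Gpx3 (−1.49), Arrdc4 (−0.79, adjusted p = 0.0010) and Hic1 (−0.68, adjusted p = 0.049). It was more positive for Tpsab1 (5.602), Gpr15lg (2.11), Asprv1 (2.02), Ccl2 (1.73), Scart2 (1.30) and Cd3e (0.50, adjusted p = 0.034). These 12 calls were not followed gene by gene in the other settings. There the count between diets, 169 in the main fit, ranged from 19 without the libraries low in Gm19220 to 286 with DESeq2. Litter, dam and a regional difference that depends on sex cannot be told apart from diet.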

How the results depend on the processing

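The count against inguinal nodes stayed within 1.5 times of 1050 in all settings tried except 2: it was 447 without the libraries low in Gm19220, 404 of them shared with the 1050, and 322 in those libraries alone, a setting chosen after seeing the data. The count among gut nodes, 1153, was 653 and 115 in these settings and 631 without the 3 duodenal libraries high in pancreatic RNA. The count between diets, 169, was 19 without the low libraries, 111 with no filter and 286 with DESeq2. Leaving out 1 deficient replicate number or 1 inguinal library gave 733 to 959 genes against inguinal nodes, 689 to 1095 among gut nodes and 86 to 265 between diets, with the count among gut nodes moved by over 1.5 times without replicate numbers 2 (689) and 4 (749), and that between diets without numbers 2 (87), 3 (86) and 4 (98) and without inguinal libraries 1 (265), 2 (93), 3 (98), 4 (109) and 5 (103). With the replicate number as a block the counts were 1322, 1304 and 279. The numbers were not taken as pairing the samples, because the labels do not tie nodes to mice. Deviations correlated above 0.1 in 25 of 50 same-number pairs (median 0.0996, lowest −0.198). They did so in 18 of 200 pairs of different numbers (median −0.033). Of 25 libraries, 19 correlated best with their own number. The class low in Gm19220 partly followed the numbers, since all libraries of number 3 were low and none of numbers 1 and 4. Numbers 2 and 5 held both classes. The deviations were not adjusted for class, and its part in these correlations was not tested. The main test treated libraries as independent, so its p-values do not allow for anything that libraries of 1 number share.

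Over 151 named genes and 22 settings, 3317 values could be computed, of which 2992 kept direction and side of the threshold, 320 were no longer past it, 2 newly passed (Aldh1a1, with the replicate block at an adjusted p of 0.034 and without inguinal library 3) and 3 reversed. Without the low libraries 57 of the 151 were no longer past the threshold. The Rps13-ps2 log2 fold change, −7.24 with all libraries, was 2.17 without the low libraries, 2.07 without deficient replicate 3 and 2.00 without inguinal library 3, and −9.55 at the lowest of those leaving out a library. The cause of the other changes was not tested. Inguinal nodes had 5 libraries, and 2 once the low class was left out. Genes below the count filter were not tested.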

Other observations

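Some genes outside the lists also divided the sides, and they were chosen after their values were seen. The insulin-like growth factor binding protein Igfbp3 lay between 29.5 and 68.3 CPM in gut-draining libraries and between 103.5 and 153.5 CPM in inguinal libraries (−1.58 ± 0.08, adjusted p = 9.6e-19 in edgeR). The water channel Aqp1 averaged 83.2 ± 15.2 CPM in the 20 gut-draining libraries and 185 ± 8 CPM in the 5 inguinal libraries (SD; −1.17 ± 0.07). The lysozyme gene Lyz1 was lower too (−1.77 ± 0.15). On the higher side stood the ficolin Fcna, at 6.11 to 43.5 CPM in gut-draining and 1.89 to 4.92 CPM in inguinal libraries (2.68 ± 0.23) and the proteoglycan Gpc3 (2.97 ± 0.32).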
